A study of Mus musculus with 6 samples.

Results

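The Mediator complex was examined as 32 genes, taken by symbol: 7 of the head module, 9 of the middle module, 10 of the tail module and 6 of the kinase module. They were among 19057 genes named on the array. Together they carried 70 of the array's 45281 probes, and 30 of the 32 genes had a probe detected well enough to be compared between strains. The complex was chosen because of 1 member, Med18, whose value in the same comparison of strains was already known to be low. Med18, its difference and its call by limma are therefore given as a description and not as evidence. The other members were taken because they belong to the complex, and nothing about the complex is supported by the reason for choosing it.

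RNA was measured in splenic B cells isolated from 3 Sle2 mice and 3 B6 mice, with 1 Illumina bead array per mouse. Sle2 mice (B6.Sle2) are a congenic line: they carry the Sle2 lupus susceptibility locus on chromosome 4, from the NZM2410 strain, on a C57Bl/6 background. B6 mice are wild type of that background. The age and sex of the mice and the ends of the transferred segment are not given in the labels, so any gene carried on the segment differs in origin between the strains along with the locus. The cells were bulk preparations, in which fewer cells of a type and less RNA per cell cannot be told apart.

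Mediator is the large coactivator that joins transcription factors bound at enhancers and promoters to RNA polymerase II. The head and middle modules contact the polymerase, the tail receives most activators, and a detachable kinase module built on Cdk8 or its paralogue Cdk19 regulates the access of polymerase to the core. In the head, Med8 anchors a dimer of Med18 and Med20, which forms a movable jaw that touches the polymerase. In B cells, as in other lineages, Mediator is concentrated at the enhancers that hold cell identity genes.

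A pair of the jaw genes are shown by their promoters, because Med18 carries the largest difference of the complex and Med20 is the partner it binds directly. The sequences are RefSeq's from the C57BL/6J assembly GRCm38.p6, from 250 bases before to 50 bases after the gene start, and are those of the B6 background. The NZM2410 sequence was not analysed here. Med18 is read from chr4:132463872-132464171 on the minus strand and Med20 from chr17:47611335-47611634 on the plus strand. Capitals mark matches to any of 5 motifs searched on both strands. The letters searched were CGGAAG for ETS factors, GGGCGG for the GC box, CCAAT for the CCAAT box, TATAAA for the TATA box and CACGTG for the E-box. A longer motif, that of NRF1, was also searched and had a match in the Med18 window, and it is neither marked nor counted here.
Med18: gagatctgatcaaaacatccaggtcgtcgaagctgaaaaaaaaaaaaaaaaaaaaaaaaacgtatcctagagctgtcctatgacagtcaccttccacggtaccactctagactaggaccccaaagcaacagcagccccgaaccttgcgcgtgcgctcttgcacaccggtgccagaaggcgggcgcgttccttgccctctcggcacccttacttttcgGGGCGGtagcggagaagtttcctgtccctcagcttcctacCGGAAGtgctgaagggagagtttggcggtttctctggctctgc
Med20: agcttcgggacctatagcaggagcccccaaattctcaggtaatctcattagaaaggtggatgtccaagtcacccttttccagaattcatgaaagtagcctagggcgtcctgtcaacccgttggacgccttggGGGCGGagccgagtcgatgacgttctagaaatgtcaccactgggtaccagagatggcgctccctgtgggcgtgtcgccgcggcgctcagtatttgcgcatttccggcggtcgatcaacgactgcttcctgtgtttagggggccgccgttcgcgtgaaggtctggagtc
The Med18 window held a GC box at -33 and an ETS match at 8 relative to the gene start, which do not overlap. The Med20 window held a GC box at -118. Promoters were listed for 27 of the 32 genes, in 31 windows. The ETS letters were in 13 of these 31 windows (41.9%), against 16.9% of all 32851 windows in the table, and the GC box in 19 (61.3%), against 35.7%. The E-box was in 4 (12.9%), against 7.15%, the CCAAT box in 12 (38.7%), against 37.4%, and the TATA box in 3 (9.68%), against 13.6%. Mediator windows were also richer in G and C, with a median of 57.7%, against 52.7% for all windows. These matches describe the letters and were not tested for binding.

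Med18 was far lower in Sle2 B cells. Its normalized value, on a log2 scale after background correction and quantile normalization, was 5.24, 5.42 and 5.61 in Sle2 mice 1, 2 and 3, against 8.23, 8.20 and 8.14 in B6 mice 1, 2 and 3. All 3 Sle2 mice lay below all 3 B6 mice, and the gap was many times the spread within either strain. The means were 5.42 ± 0.19 in Sle2 and 8.19 ± 0.05 in B6 (SD, n = 3 each). The difference, Sle2 minus B6, was -2.77 on the log2 scale (standard error from the limma fit, SE, 0.115), a 6.81-fold lower level. Among 9297 tested genes it ranked 4 by the size of the difference, and 1 gene had a larger decrease. Before normalization the same probe read 75.1, 74.9 and 83.4 intensity units in Sle2 mice, against 306, 296 and 307 units in B6 mice. It was still detected in every Sle2 mouse, with detection p-values of 0.016, 0.00427 and 0.00107, so Sle2 cells gave a signal close to, but above, the negative controls. Without background correction the difference was -2.12, and with the authors' own normalized values it was -2.10, in each case with the same direction.

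The array has 3 probes for Med18, all annotated to the same transcript, and 1 of them carried the difference. The probe ILMN_1214075 read 5.23, 4.62 and 4.88 in Sle2 mice, against 4.86, 4.87 and 4.84 in B6 mice, and was detected in 1 Sle2 mouse and in 0 B6 mice. The probe ILMN_2826067 read 4.30, 4.26 and 4.31 in Sle2 mice, against 4.40, 4.30 and 4.27 in B6 mice, and was detected in none. Both probes stayed near background in B6 cells, where the first probe was bright, so they give no second measurement of the difference. The probe sequences were not used here, and whether a probe matches the NZM2410 allele was not tested.

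**Figure D1:**
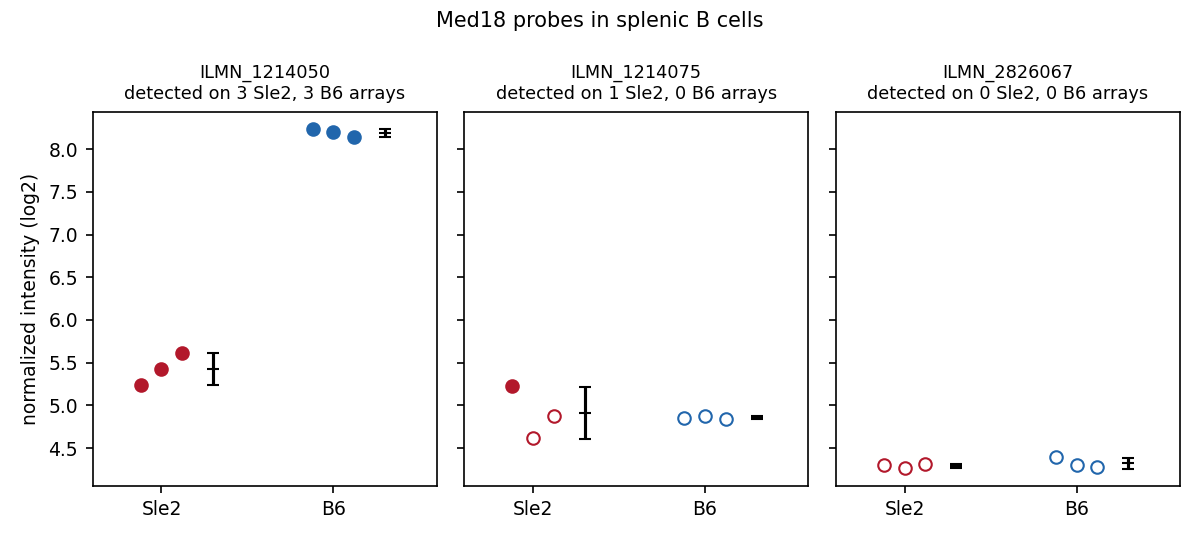
Normalized intensity (log2) of the 3 Med18 probes in each mouse, Sle2 at left and B6 at right in each panel. Filled points are detected (detection p-value under 0.05), open points are not, and the bars show the mean and SD of 3 mice. The difference between strains is -2.77 log2 units on the first probe, while the others lie near background in both.

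Set against the rest of the complex, Med18 stood alone in size. On the Sle2 arrays it lay at -2.95, -2.77 and -2.58 log2 units from its B6 mean in mice 1, 2 and 3. The median of the other 29 tested subunits, each taken from its own B6 mean, was -0.05, -0.01 and -0.01 on those arrays. The lowest of the others was Med13l at -0.63 in mouse 1, and Med8 at -0.33 in mouse 2 and -0.67 in mouse 3. The highest was Med28 on every Sle2 array, at 0.37, 0.32 and 0.50. Over the means, the differences of the other 29 subunits ran between -0.50 and 0.40.

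**Figure D2:**
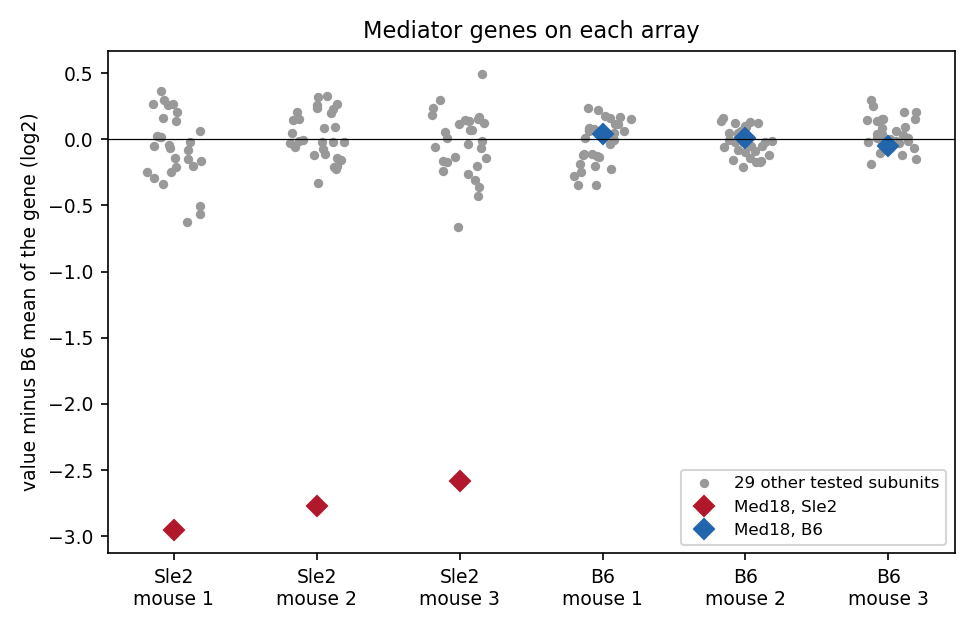
Each tested Mediator gene on each array, as its normalized value minus the gene's B6 mean (log2). Diamonds are Med18 (red in Sle2, blue in B6) and grey points are the 29 other tested subunits. Med18 lies below -2.5 on every Sle2 array, and no other subunit lies below -0.67.

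By limma over all probes with Benjamini-Hochberg adjustment, 1 of the 30 tested Mediator genes was called lower at an adjusted p under 0.05 and 0 higher. The called gene is Med18, whose value chose the complex. Over all tested genes 1.04% were called, 0.387% lower and 0.656% higher, so a single call among 30 genes is not read as a result about the complex. Of the 29 others 0 were called by limma, and at an unadjusted p under 0.05 there were 3 higher and 1 lower, where 10.5% and 6.45% of all genes were. The strains did not overlap for 7 of the 30 genes, Med18 among them, 5 higher and 2 lower in Sle2, a separation seen in 24.2% of all genes (14.7% higher and 9.45% lower). The median difference of the 30 genes was -0.02, against 0.02 over all genes, and the median size of the difference regardless of sign was 0.14, against 0.13. With arrays scaled to equal medians, the median of all genes moved to 0.14 and that of Mediator to 0.11, so relative to all genes Mediator was at -0.04 with quantile normalization and -0.03 with median scaling.

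**Figure D3:**
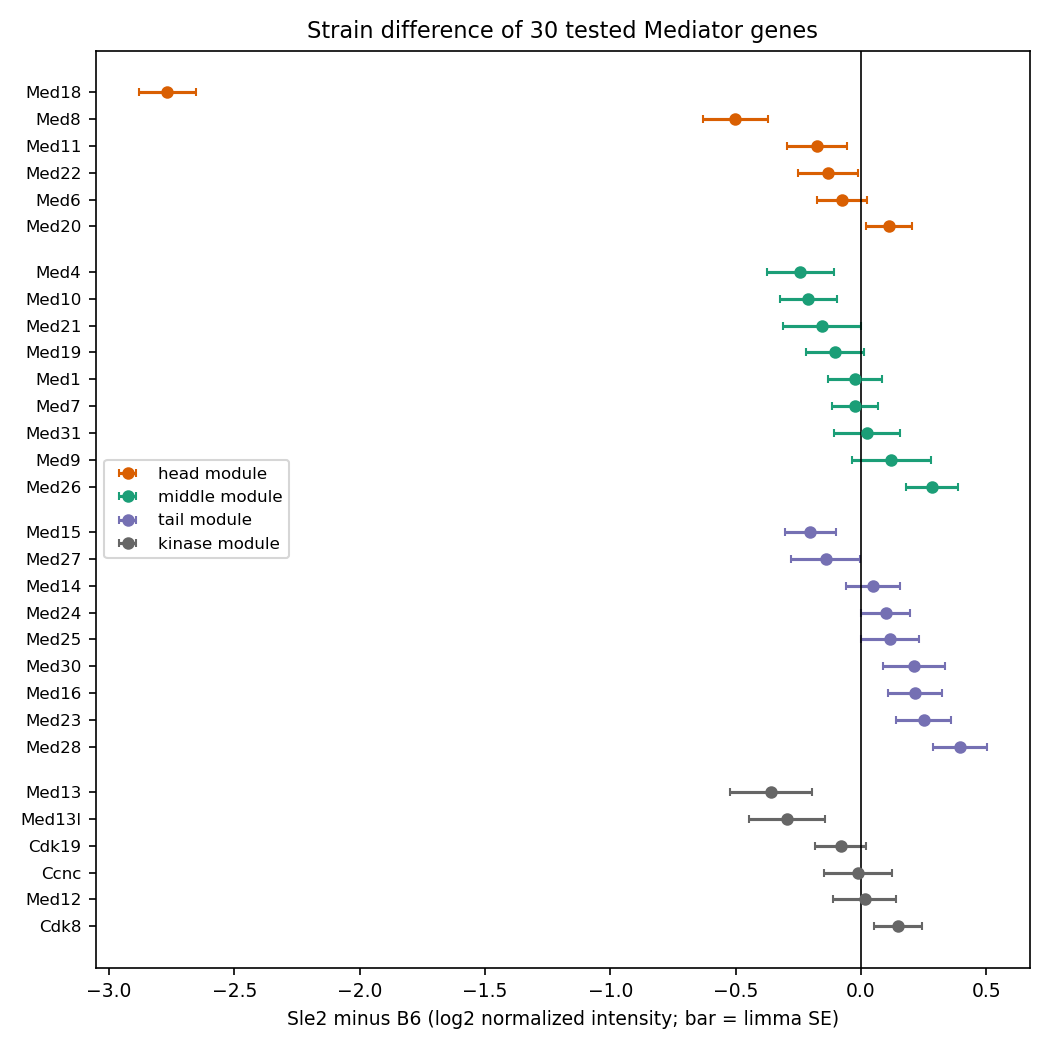
Difference between strains, Sle2 minus B6 on the log2 scale, of the 30 tested Mediator genes, grouped by module and ordered within it. Bars are limma standard errors. Med18 is at -2.77, and the other 29 genes lie between -0.50 and 0.40.

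In the head module, the partners of Med18 did not share its size of difference. Med20, which pairs with Med18 in the jaw, read 9.47, 9.49 and 9.59 in Sle2 mice, against 9.45, 9.39 and 9.38 in B6 mice. Its Sle2 values lay just above its B6 values, without overlap, and the difference was 0.11 (SE 0.0917, 95% confidence interval -0.10 to 0.32, limma adjusted p = 0.568). Its other 3 probes were detected in at most 2 mice and were not tested. Med8, which tethers the pair to the head, was the next lowest subunit and also lies on chromosome 4. Its brighter probe read 8.82, 8.99 and 8.66 in Sle2 mice, against 9.13, 9.39 and 9.46 in B6 mice. The strains did not overlap on this probe, and the difference of -0.50 (SE 0.129, 95% confidence interval -0.79 to -0.21) did not pass the adjusted threshold (limma adjusted p = 0.116). The other kept Med8 probe read 8.55, 8.78 and 8.72 in Sle2 mice, against 8.62, 8.94 and 8.77 in B6 mice, with overlapping strains and a difference of -0.09. The 2 Med8 probes thus had the same sign and unlike sizes, and the mean of both gave a difference of -0.30 (limma adjusted p = 0.230).

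The rest of the head showed small differences. Med6, which bridges head and middle, was at -0.08, and Med11 and Med22, which form a small helical pair in the head, were at -0.17 and -0.13. Every kept probe of Med11 and of Med22 was lower in Sle2. The dimmer Med22 probe read 6.06, 5.77 and 6.02 in Sle2 mice, against 6.29, 6.24 and 6.34 in B6 mice. Its strains did not overlap and its difference was -0.34, without passing (limma adjusted p = 0.176). Med17, the scaffold of the head, was detected in 1 B6 mouse and in 0 Sle2 mice on its only probe, so it was not tested. Of the 6 tested head genes 5 were lower in Sle2 and 1 was higher, where 4259 of all 9297 genes were lower and 5038 higher. The head median was -0.15 with Med18 and -0.13 without it. The 1 of 6 that was called is Med18, whose value chose the complex, where 1.04% of all genes were called.

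**Figure D4:**
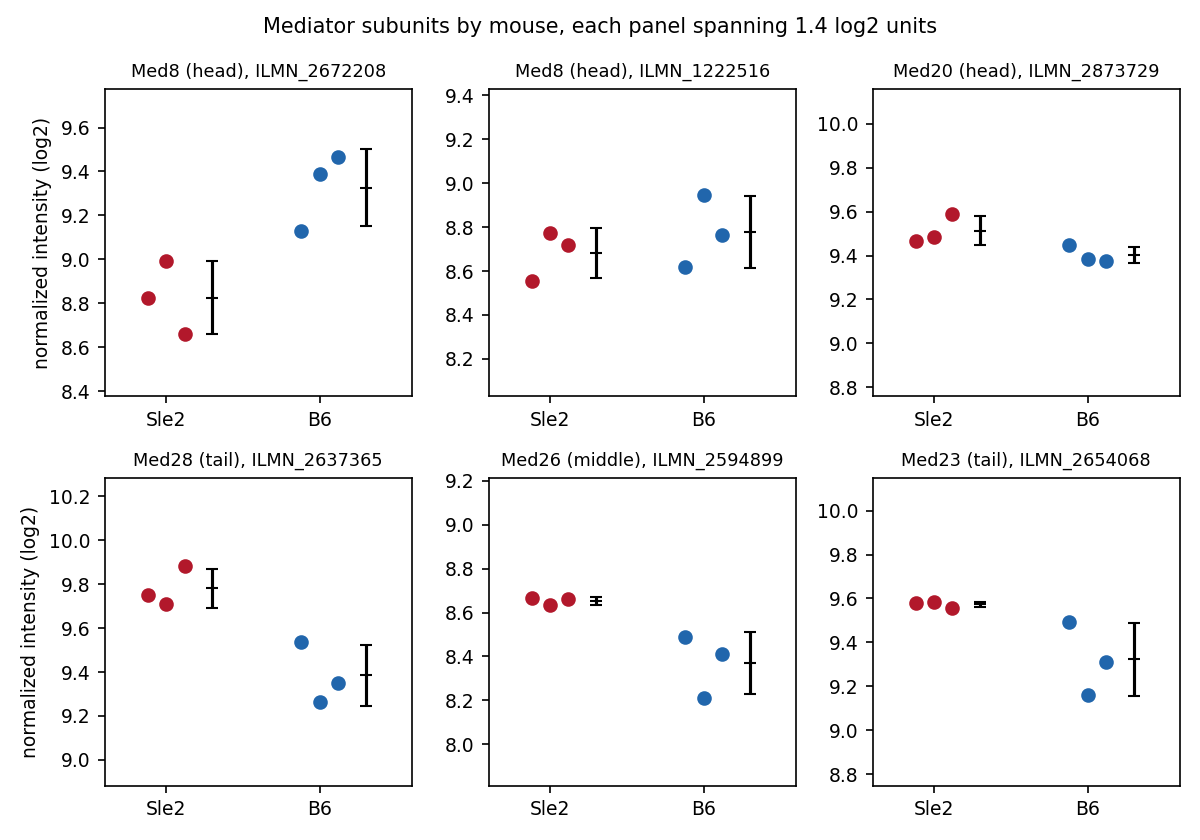
Normalized intensity (log2) of the 2 Med8 probes, Med20, Med28, Med26 and Med23 in each mouse, Sle2 at left and B6 at right in each panel, with the mean and SD of 3 mice. Strains do not overlap except on the second Med8 probe, and all differences shown lie between -0.50 and 0.40. Of the 30 tested Mediator genes, 5 were higher and 2 lower in Sle2 without overlap, and the genes shown are among these. Over all tested genes 24.2% did not overlap.

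The middle module, which carries the signal from tail to polymerase, had more subunits below 0 than above it. Med26, the subunit that recruits elongation factors, read 8.67, 8.63 and 8.66 in Sle2 mice, against 8.49, 8.21 and 8.41 in B6 mice. All Sle2 values were above all B6 values, and its difference of 0.28 (SE 0.103) did not pass (limma adjusted p = 0.216). Med4 and Med10, structural subunits of the middle, were at -0.24 and -0.21, with overlapping strains. Med1, the docking subunit for nuclear receptors, was at -0.02 on its brightest probe and between -0.21 and -0.02 over its 3 kept probes. The lowest of these probes read 6.38, 6.37 and 6.56 in Sle2 mice, against 6.56, 6.73 and 6.65 in B6 mice, which barely separated the strains (limma adjusted p = 0.328). Med7 at -0.02 and Med21 at -0.16 form the hinge of the module. The small subunits Med19, Med31 and Med9 were at -0.10, 0.02 and 0.12. Of the 9 middle genes 6 were lower and 3 higher, where 4259 of all 9297 genes were lower and 5038 higher. By limma 0 were called, and 1 was higher at an unadjusted p under 0.05, as were 10.5% of all genes. Their median was -0.02, and relative to all genes it was -0.04 with either scaling.

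The tail module had more subunits above 0 than below it. Med28, a subunit of animals that yeast lacks, read 9.75, 9.71 and 9.88 in Sle2 mice, against 9.54, 9.26 and 9.35 in B6 mice. The strains did not overlap, and the difference of 0.40 (SE 0.108, 95% confidence interval 0.15 to 0.64) did not pass (limma adjusted p = 0.135). Med23, a target of MAP kinase-activated Elk1, read 9.58, 9.58 and 9.56 in Sle2 mice, against 9.49, 9.16 and 9.31 in B6 mice. Its Sle2 mice were closely alike and all above the B6 mice. Both kept Med23 probes had a similar difference, 0.25 and 0.24, and neither passed (limma adjusted p = 0.286 and 0.343). Med16 and Med24, which assemble with Med23 in the tail, were at 0.22 and 0.10, and Med30 was at 0.21. Med25, bound by several activators, was at 0.12 on its brightest probe but at -0.18 and -0.11 on its other 2 kept probes, so its direction depends on the probe. Med15, the subunit that receives SREBP activators, was lower on all 4 kept probes, between -0.31 and -0.19, with limma adjusted p = 0.352 on the brightest. Med27, of the upper tail, was at -0.14, and Med29 was detected on no array.

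Med14, the backbone that ties tail, head and middle together and is counted here with the tail, was at 0.05 on its brightest probe and between -0.22 and 0.05 over 3 kept probes. Of the 9 tested tail genes 7 were higher and 2 lower, where 5038 of all 9297 genes were higher and 4259 lower. By limma 0 were called, and 2 were higher at an unadjusted p under 0.05, as were 10.5% of all genes. With the mean of all kept probes Med14 and Med25 were lower instead, at -0.10 and -0.06. The tail median was 0.12, and relative to all genes it was 0.10 with quantile normalization and 0.13 with median scaling. That median was 0.20 without B6 mouse 1.

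In the kinase module, the cyclin was near 0, and the cyclin-dependent kinases had differences of opposite sign. Cdk8 was at 0.15 (SE 0.0973), with 8.72, 8.73 and 8.76 in Sle2 mice, against 8.70, 8.58 and 8.48 in B6 mice, a narrow separation that did not pass (limma adjusted p = 0.464). Cdk19 was at -0.08 on its brightest probe and lower on all 3 kept probes. The next brightest Cdk19 probe read 8.95, 9.09 and 9.10 in Sle2 mice, against 9.24, 9.45 and 9.31 in B6 mice, without overlap and with a difference of -0.29 (limma adjusted p = 0.203). Ccnc, the cyclin of both kinases, was at -0.01 and lay between -0.07 and 0.04 over 4 kept probes.

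Med13 and its paralogue Med13l, which link the kinase to the core, were the lowest of this module. Med13 read 4.98, 5.33 and 5.23 in Sle2 mice, against 5.19, 5.68 and 5.74 in B6 mice, and Med13l was at -0.29. Both were dim and overlapped between strains, and the Med13 difference of -0.36 did not pass (limma adjusted p = 0.302). Med12, which activates Cdk8, was at 0.01. Of the 6 kinase genes 4 were lower and 2 higher, where 4259 of all 9297 genes were lower and 5038 higher. Their median was -0.05 (relative to all genes, -0.07 with quantile normalization and -0.04 with median scaling). Limma called 0 of them, where 1.04% of all genes were called. At an unadjusted limma p under 0.05 there were 0, where 10.5% of all genes were higher and 6.45% lower.

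Several subunits were measured by more than 1 kept probe, which shows how far probes of the same gene differ. For some, among them Med1, Med22 and Med15, the kept probes are annotated to different transcripts. Probe error and transcript use were therefore not told apart. Of 11 such genes, 7 had the same sign on every kept probe: Med8, Med11, Med22, Med1, Med15, Med23 and Cdk19. Over all 49 kept probes of the complex, 33 were lower and 16 higher in Sle2, and 1 was called, that of Med18, where 1.06% of all kept probes were. Probes of the same gene are counted separately there, so the split is not read as a result about the complex. By gene, 17 of the 30 tested were lower and 13 higher, where 4259 of all 9297 genes were lower and 5038 higher. Of the 70 probes, 16 were detected on no array.

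The subunits lie on 16 chromosomes, with 7 on chromosome 11 and 3 on chromosome 4, where the transferred locus is. The 3 on chromosome 4 are Ccnc, Med8 and Med18, in that order along the chromosome in the RefSeq table. Called genes of chromosome 4 began at Tmem38b, the 129th of its 575 tested genes, and ended at Perm1. Ccnc, at -0.01, is the 30th and lies before all of them. Med8 is the 284th and Med18 the 383rd. Tmem38b and the called genes that follow it up to Med8 number 12, with 6 more between Med8 and Med18 and 11 after Med18. On this chromosome 5.22% of tested genes were called.

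The genes beside Med18 did not share its difference. Of the 5 nearest tested genes on each side 1 was called, Atpif1, an inhibitor of the mitochondrial ATP synthase, which was higher. Atpif1 read 12.27, 12.18 and 12.19 in Sle2 mice, against 11.71, 11.50 and 11.68 in B6 mice, a rise of 0.58 (SE 0.0996, limma adjusted p = 0.0392). Phactr4 on one side was at 0.12, and Sesn2, a stress-induced sestrin on the other side, was at -0.49 (limma adjusted p = 0.153). The others lay between -0.43 and 0.08, and Snhg12 was the lowest of them. Around Med8, 1 of 10 neighbours was called, the adjacent gene Hyi, which rose by 1.58 (SE 0.0945, limma adjusted p = 0.000114). The other 9 neighbours of Med8 lay between -0.21 and 0.32.

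**Figure D5:**
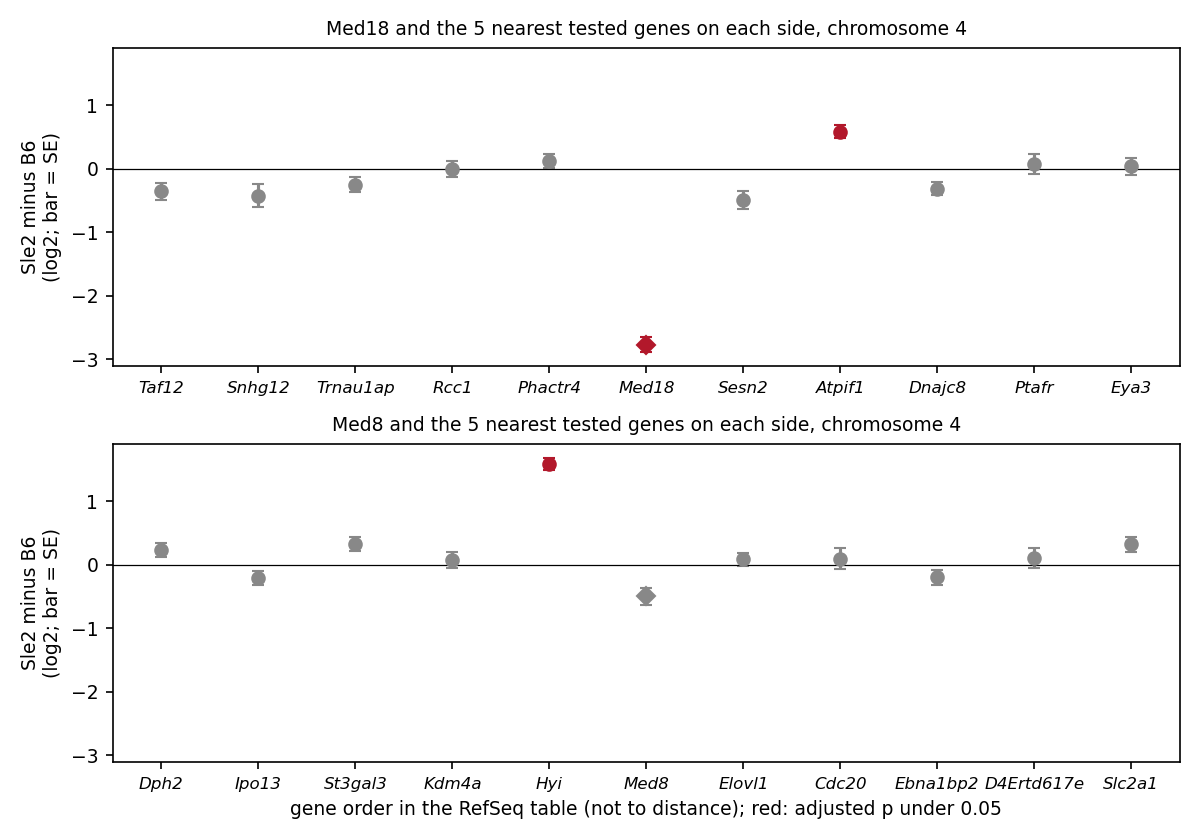
Difference between strains (Sle2 minus B6, log2, with limma standard errors) of Med18 and of Med8 and the 5 nearest tested genes on each side, in gene order and not to distance. Red marks an adjusted p under 0.05 and diamonds mark the Mediator genes. Med18 at -2.77 stands between Phactr4 at 0.12 and Sesn2 at -0.49.

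The machinery that Mediator works with was followed in 5 lists of 74 genes, of which 58 were tested. None was called by limma, and at an unadjusted p under 0.05 there were 5 higher and 5 lower, where 10.5% and 6.45% of all genes were. Their median difference was 0.03, against 0.02 over all genes. Of 7 tested RNA polymerase II subunits (median -0.07), Polr2e had the smallest p, at -0.30 (limma adjusted p = 0.362). Of 14 general transcription factors (median 0.03) it was Cdk7, the kinase of TFIIH, at -0.37 (limma adjusted p = 0.126), with 5.71, 5.74 and 5.83 in Sle2 mice, against 6.24, 6.11 and 6.04 in B6 mice. Of 10 TAF subunits of TFIID (median 0.00) it was Taf12, at -0.36 (limma adjusted p = 0.216), which is also 1 of the 5 tested genes on one side of Med18. Of 19 pause release and elongation factors (median 0.03) it was Mllt3, a subunit of the super elongation complex, at 0.44 (limma adjusted p = 0.0836). Mllt3 read 6.79, 6.64 and 6.79 in Sle2 mice, against 6.31, 6.38 and 6.20 in B6 mice. Of 8 coactivators (median 0.06) it was Crebbp, an acetyltransferase, at 0.46 (limma adjusted p = 0.129). Cdk7, Mllt3 and Crebbp each separated the strains without overlap, as did 17 of the 58 genes, 10 higher and 7 lower, where 14.7% and 9.45% of all genes did.

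Median raw intensities were 53.6 to 56.7 in Sle2 mice and 50.4 to 52.1 in B6 mice. Before normalization every Sle2 array thus had a higher median than every B6 array. On each array 17417 to 17923 probes were detected. The 7 B cell markers tested had a median difference of -0.05. Markers of other cells also differed: the median was 0.41 for 7 T cell genes (6 higher), 0.42 for 4 natural killer genes (4 higher), 0.13 for 5 monocyte and macrophage genes (5 higher), 0.37 for 5 neutrophil genes (5 higher), 0.71 for 5 erythroid genes (4 higher), 0.30 for 4 plasma cell genes (4 higher) and -0.34 for 6 platelet genes (0 higher). None of the 43 tested markers was called by limma, where 1.04% of all genes were. At an unadjusted limma p under 0.05 there were 11 higher and 2 lower, where 10.5% and 6.45% of all genes were. The summed normalized intensity of the T cell list was 1675 to 1966 in Sle2 mice and 1657 to 1755 in B6 mice, that of the erythroid list 15615 to 20630 in Sle2 mice and 12037 to 22431 in B6 mice, and that of the B cell list 21655 to 22393 in Sle2 mice and 22325 to 24923 in B6 mice. The defining genes Cd4, Cd8a, Ncr1, Itgam, Jchain and Prdm1 were detected on no array. The part of these cells in the Mediator values was not tested. Xist read 10.93 in Sle2 mouse 3 and 10.13 in B6 mouse 2. It was 4.36 and 4.30 in the other Sle2 mice, 4.33 in B6 mouse 1, and 5.89 in B6 mouse 3, whose Y-linked Eif2s3y was 8.67. Each strain thus held both patterns. Without B6 mouse 3 the Med18 difference was -2.79, and with Xist as a covariate it was -2.76. The X-linked subunits Med12 and Med14 were at 0.01 and 0.05.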

How the data were processed

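Total RNA of freshly isolated splenic B cells was biotin-labelled and put on Illumina bead arrays, per the labels' protocols. Per the submitters' processing notes, GenomeStudio produced the deposited intensities. They are linear and, from their values, neither background-subtracted nor normalized. Per the file headers, the deposited table pairs each intensity with a detection p-value. Intensities in the authors' series matrix share 1 distribution across arrays and served as an alternative.

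Intensities were corrected by normexp with 936 negative controls recovered from the detection p-values (offset 16), quantile-normalized and log2-transformed (limma 3.58.1, R 4.3.3). A probe was kept (17861) if 3 or more of the 6 arrays detected it (p-value under 0.05), and the brightest kept probe stood for a gene (9297 genes). Probes carried 1 gene symbol (34885), several (18) or none (10378), updated through a RefSeq table of GRCm38.p6. lmFit and eBayes were run over all kept probes with Benjamini-Hochberg adjustment, and the fit was tested on simulated data. Precision is limited by the number of arrays. An exact permutation test of 3 against 3 cannot go below p = 0.1. Strain and mouse number came from the sample titles.

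All 32 members were named, as were the machinery gene of smallest p in each list and the 5 tested genes on each side of Med18 and Med8. The members, modules, lists and alternatives were chosen with earlier results of these data known. The alternatives were other background, scaling, filter, prior, weight, probe, threshold, block and covariate settings and each mouse left out.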

Additional observations from a re-analysis of the deposited data

How the results depend on the processing

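Med18 was at -2.12 without background correction, -2.10 with the series matrix values and -2.86 to -2.67 with single mice left out. The prior, block, probe mean and no filter can only give -2.77. Requiring detection at p under 0.01 on every array removed the Med18 probe, so 0 Mediator genes were called there, against 1. With median scaling 2 were called (Med18 and Med28, limma adjusted p = 0.0478). A trended robust prior gave 3 (Med18, Med8, adjusted p = 0.0248, and Med28, adjusted p = 0.0374). Over the alternatives the limma adjusted p ran from 0.0248 to 0.306 for Med8 and from 0.0374 to 0.337 for Med28. Of the 29 other subunits 18 kept their sign under every alternative that gave them a value (stricter detection gave none for Med13 and Med13l), 3 changed sign under median scaling only, which raised the median of all genes, and 8 under another alternative. Median scaling moved the medians to 0.11 for Mediator, -0.027 for the head, 0.10 for the middle, 0.27 for the tail and 0.10 for the kinase module, as it moved that of all genes. The mean of all kept probes gave -0.068 for Mediator and -0.11 for the kinase module. With single mice left out the medians ran from -0.088 to -0.010 for Mediator, -0.21 to -0.080 for the head, -0.089 to -0.0087 for the middle, 0.075 to 0.20 for the tail and -0.11 to -0.037 for the kinase module, those of Mediator, the middle, tail and kinase modules being farthest from 0 without B6 mouse 1 and that of the head nearest to 0 without Sle2 mouse 1. The Mediator median was nearest to 0 without Sle2 mouse 1, the middle without B6 mouse 3, and the tail and kinase medians without Sle2 mouse 2. Machinery genes called numbered 2 with median scaling (Mllt3 and Crebbp) and 1 at an adjusted p under 0.1 (Mllt3), against 0. All genes called numbered 97, 61 higher and 36 lower, against 173 without background correction, 245 (219 higher and 26 lower) with median scaling, 187 with the series matrix values, 56 with no filter, 285 with the trended robust prior, 51 with the Xist covariate, 250 at an adjusted p under 0.1, and 28 to 143 with single mice left out (leaving out Sle2 mouse 1 gave 28, Sle2 mouse 2 gave 32, Sle2 mouse 3 gave 29, B6 mouse 1 gave 143, B6 mouse 2 gave 56 and B6 mouse 3 gave 38). With mouse number as a replicate block 72 genes and 1 Mediator gene were called. In the labels same-numbered mice shared only a number, and whether they were handled together was not tested. Their deviations correlated at 0.20, 0.13 and 0.04 for mice 1, 2 and 3. Sle2 mice 1 and 2 correlated best with the B6 mouse of the same number, and Sle2 mouse 3 with B6 mouse 2. Where a setting changed a call, the cause was not tested, apart from the probe removed by stricter detection. Signals close to the negative controls, as for Med18 in Sle2 cells, Med13 and Med13l, limit how far their differences can be sized.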
